A study of Saccharomyces cerevisiae with 14 samples.

Results

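This report describes the transcriptome of the TYS1 DAmP strain of budding yeast against that of WT, over the 5727 of 5886 deposited genes whose mean was at least 1 FPKM across the 14 libraries of the series. FPKM are fragments counted on a gene, scaled to its length and to all mapped fragments of the library. The comparison used 5 of the 14 libraries, 3 of TYS1 DAmP and 2 of WT. The series design text describes 3 replicates in each group, and only 2 WT libraries were analysed here. All strains carry the BY4741 background (MATa his3Δ1 leu2Δ0 met15Δ0 ura3Δ0) and were grown to log phase in rich medium (YPD). The TYS1 DAmP strain has in addition the allele tys1-DamP::KanMX. The other 9 libraries are 3 each of MSB3Δ, NIT3Δ and HSP26Δ, and they were used only to ask where TYS1 DAmP differed from the other mutants.

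Tys1 is the cytosolic tyrosyl-tRNA synthetase, which loads tyrosine onto its tRNA for translation, and the gene is essential. A DAmP allele (decreased abundance by mRNA perturbation) places a drug-resistance cassette at the end of the open reading frame. The transcript then loses its own 3′ end and is less stable. Several of the groups described below concern ergosterol, the main sterol of yeast membranes. Its late synthesis runs from squalene through lanosterol to ergosterol and uses oxygen and heme at several steps. Upc2 and Ecm22 are transcription factors that bind the sterol response element in promoters and raise ergosterol genes when sterols are low, and Upc2 also raises cell wall mannoprotein genes that yeast uses without oxygen.

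The sequence that places the cassette is shown because it defines the allele. It is the homology arm of the forward primer, which matched the R64 reference on the minus strand of chromosome VII between 866339 and 866388, inside the only exon of TYS1. It covers coding bases 1133 to 1182 of 1185, so only the 3 bases of the stop codon follow it. The matching part of the reverse primer, 52 bases long, starts with the last 5 coding bases and so holds the stop codon. The primers thus place the cassette before the native stop codon. Whether the cassette brings a stop codon of its own was not examined. Capitals mark the last sense codon.
kd-TYS1-F homology arm: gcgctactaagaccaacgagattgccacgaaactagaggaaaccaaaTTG

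Promoter sequences are shown for genes on which the sterol results turn. The letters TCGTATA, the core of the sterol response element, were searched on both strands in the 600 bases before each start codon in the R64 genome of RefSeq, and capitals mark them. Each line gives the motif with 10 bases on either side, in the direction in which the motif reads.
ERG3: gccatcggccTCGTATAcaccccggtt
ERG25: ctgcctccctTCGTATAcgggacacag
ERG2: accacggcccTCGTATAagccgcaagg
ERG6: gccccgatctTCGTATAtggtacctcg
TIR1: tttatagccgTCGTATAgagaaaattg
TIR3: gaagtacgccTCGTATAaggccaatgt
DAN1: gttagaggccTCGTATAgatcttggca
These lie at chrXII:253525-253551 (minus strand), chrVII:610071-610097, chrXIII:667342-667368, chrXIII:253406-253432 (minus strand), chrV:174711-174737 (minus strand), chrIX:333296-333322 (minus strand) and chrX:709894-709920, respectively. ERG3 and ERG25 hold 2 matches each, and the window of ATF2, a sterol gene named below, holds none.

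TYS1 (YGR185C, chrVII:866336-867520) was at 66.2, 71.4 and 82.5 FPKM in the 3 TYS1 DAmP libraries, and at 512.3 and 562.6 in the 2 WT libraries. All 3 DAmP libraries thus lay far below both WT libraries, at 13.7% of the WT mean. The study described a milder reduction of TYS1 in its DAmP strain, with RT-qPCR. The 9 deletion libraries held between 412.9 and 561.0 FPKM. On the log2(FPKM + 1) scale, on which every fold change here is given and which understates changes of low genes, TYS1 fell by 2.86 (SE 0.17, limma adjusted p = 0.00565). The fall was 2.79 without TYS1 DAmP replicate 1.

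The 2 nearest annotated genes on each side of TYS1 did not pass the thresholds. UBR1, a ubiquitin ligase of the N-degron pathway that starts beyond the coding end of TYS1 and runs the same way, was at 18.4, 15.1 and 13.5 FPKM in TYS1 DAmP and 14.95 and 15.5 in WT. The values of the strains overlapped. The log2 differences of QCR9, UBR1, TFG1 and HGH1 were -0.04, 0.03, 0.14 and -0.29. HGH1, a chaperone of translation elongation factor 2, was the only one of these 4 with all 3 DAmP libraries below both WT libraries.

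**Figure D1:**
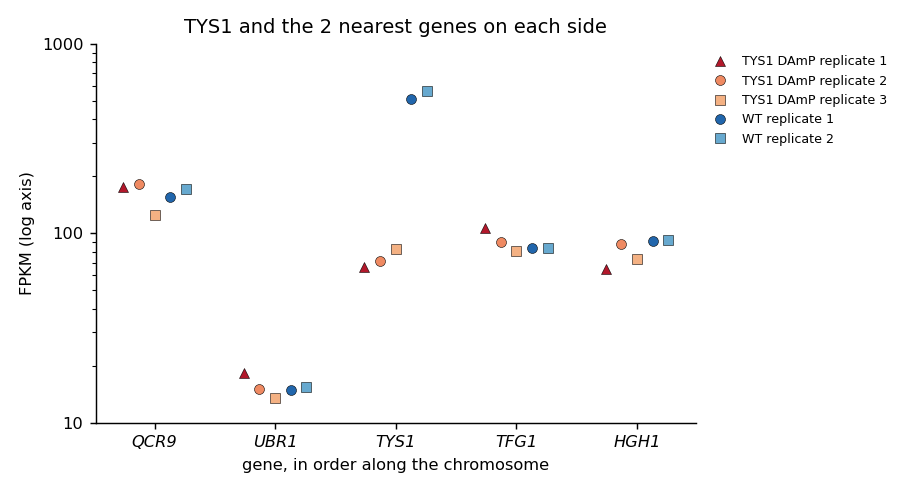
FPKM of TYS1 and the 2 nearest genes on each side in the 3 TYS1 DAmP and 2 WT libraries, 1 point per library on a log axis. TYS1 is at 66.2 to 82.5 FPKM in TYS1 DAmP and 512.3 to 562.6 in WT, whereas the libraries of UBR1 and TFG1 overlap.

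Across the 5727 genes, 191 (3.34%) were higher and 94 (1.64%) lower in TYS1 DAmP at the study's thresholds, that is, more than 1.5 times or less than 0.7 times the WT level and p under 0.05 before adjustment. Genes past these thresholds are called higher or lower below. Counts of called genes in the lists are to be read beside these shares of all genes. The study's own lists for this strain at these thresholds were shorter and held more down-regulated than up-regulated genes. In the fit used here, an unadjusted p under 0.05 alone was reached by 443 genes (7.74%). After Benjamini-Hochberg adjustment over all 5727 genes, limma called 5 (0.0873%): TYS1, the mannoprotein gene TIR1, and the sterol genes ERG3, ATF2 and ERG25. This count was 0 without TYS1 DAmP replicate 2 or 3 or either WT library, each left out in turn, and 180 without TYS1 DAmP replicate 1. The genes called higher then numbered 291 without TYS1 DAmP replicate 3, and 104 and 89 without WT replicates 1 and 2, and those called lower 235 without TYS1 DAmP replicate 2, and 26 and 49 without WT replicates 1 and 2. All 3 DAmP libraries lay above both WT libraries in 1167 genes (20.4%) and below both in 708 (12.4%), so that a lack of overlap alone was common. Over all these genes the log2 fold change had a median of 0.07, and of -0.01 after median-ratio scaling.

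TYS1 DAmP replicate 1 stood apart from the other replicates. The SD over genes of the log2 difference was 0.634 and 0.612 between it and replicates 2 and 3, against 0.276 between replicates 2 and 3 and 0.245 between the WT libraries. Genes over 1 log2 unit apart numbered 429 and 453 in the first pairs, and 73 between replicates 2 and 3. Its depth did not stand out: from the steps of low FPKM values, its fragments were estimated at 1.01 times those of WT replicate 1, against 0.986, 1.02 and 0.898 for TYS1 DAmP replicates 2 and 3 and WT replicate 2. Each pair of the 5 libraries held identical values for only 61 to 70 of the genes, so no library was a copy of another.

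Without replicate 1, 144 genes (2.51%) were called higher and 104 (1.82%) lower. Of the first calls, 117 higher (2.04%) and 51 lower (0.891%) were called in both fits. Since replicates 2 and 3 lie close together, limma then gave 112 genes (1.96%) higher and 68 (1.19%) lower at an adjusted p under 0.05, where it had given 5 with all libraries. All 5 of those were among the 180. Counts without this library are given for most of the groups below.

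**Figure D2:**
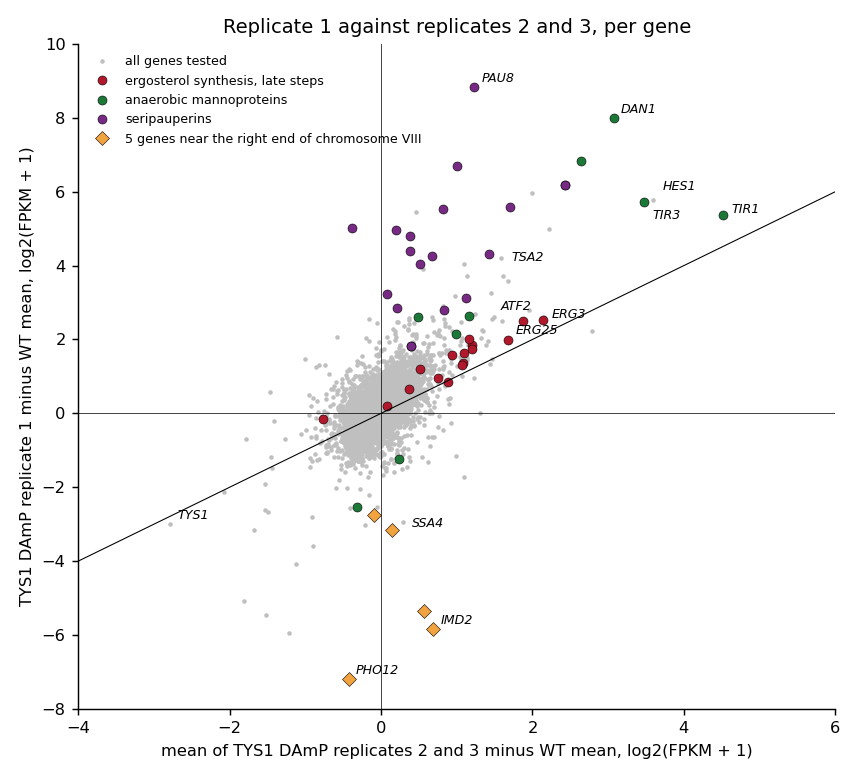
Difference from the WT mean in log2(FPKM + 1), 1 point per gene, for the mean of TYS1 DAmP replicates 2 and 3 (horizontal) and for replicate 1 (vertical), with the line of equal values. Late ergosterol genes and TIR1 lie near the line. TIR3, TIR4, DAN1 and the seripauperins as a group lie far above it, and CWP1 and CWP2 below it. PHO12 and IMD2, at 0.00 and 0.44 FPKM in replicate 1, lie at the bottom.

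Several genes near the right end of chromosome VIII were at or near 0 in replicate 1. PHO12, an acid phosphatase, was at 0.00 FPKM there and between 27.6 and 288.8 in the other 13 libraries. IMD2, an inosine monophosphate dehydrogenase of guanine nucleotide synthesis, was at 0.44 FPKM against 17.5 to 233.3. These were the only genes under 1 FPKM in replicate 1 and at least 10 in the other 13 libraries, and no other library had such a gene. Between chrVIII:541651-555967, YHR214W, YHR214C-B and YHR214C-C were also at 0.00, 2.38 and 0.26 FPKM, where the other 13 libraries held at least 6.68, 129.4 and 3.91. The other annotated genes of the stretch, YHR214C-D and YHR214C-E, were at 0.26 and 1.78 FPKM and overlapped the 0.00 to 2.22 and 1.02 to 6.08 of the other libraries. FPKM cannot tell a loss of the DNA from a loss of its transcripts. The repeated genes beyond them, YHR218W and YHR219W, were at 3.81 and 8.33 FPKM and overlapped the other libraries. IMD2 was called higher without replicate 1, with a log2 fold change of 0.69 (limma adjusted p = 0.0149), where all libraries together gave -1.49. PHO11, the near-identical copy of PHO12 on chromosome I, was at 195.8 FPKM in replicate 1 and 12.4 to 85.2 in the rest. YAR068W, also on chromosome I, went the other way, at 3.15 FPKM in replicate 1 and 7.04 to 20.2 in the rest.

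The late ergosterol genes formed the clearest group. Of 16 genes tested, 13 were called higher and 0 lower, against 3.34% and 1.64% of all genes, and their median log2 fold change was 1.17 against 0.07. In single libraries this median stood at 1.47, 1.14 and 0.96 above the WT mean, so replicate 1 led but did not stand alone. Without replicate 1, 12 were called higher and 1 lower, with a median of 1.08, and limma gave 13 higher and 1 lower at an adjusted p under 0.05. With all libraries limma gave 2 of the 16 an adjusted p under 0.05. That number was 0 with 1 fit over all 5 groups, on unlogged FPKM, and without TYS1 DAmP replicate 2 or 3.

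ERG3 (YLR056W), the C-5 sterol desaturase, was at 2397, 1828 and 1819 FPKM in TYS1 DAmP and 450.6 and 378.8 in WT. Every DAmP library was several times above both WT libraries, and above the 163.6 to 991.0 FPKM of the deletion libraries. The log2 fold change was 2.27 (SE 0.19, limma adjusted p = 0.0223), and 2.14 without replicate 1. ERG25 (YGR060W), the C-4 methyl sterol oxidase, was at 1472, 1243 and 1117 FPKM against 398.7 and 339.2. Its groups were again wide apart, with a log2 fold change of 1.78 (SE 0.18, limma adjusted p = 0.0447), and 1.68 without replicate 1.

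ERG5, the C-22 sterol desaturase, was at 170.1, 101.3 and 120.6 FPKM in TYS1 DAmP and 31.6 and 27.2 in WT. Its libraries did not overlap, and it was called higher by 2.09 on the log2 scale, although its adjusted p was 0.0786. ERG11, the lanosterol demethylase that azole drugs inhibit, was at 663.3, 410.4 and 434.8 FPKM against 181.6 and 184.1. Replicate 1 was highest and the other 2 still stood more than 2-fold above WT, with a log2 fold change of 1.42. The demethylase depends on electrons from Ncp1 and Cyb5. NCP1 was at 274.5, 298.7 and 262.4 FPKM against 158.1 and 145.0, and its log2 fold change was 0.87 with replicate 2 the highest. CYB5 was at 364.2, 342.4 and 274.1 against 152.9 and 137.8, a log2 fold change of 1.16. Neither pair of groups overlapped.

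ERG28, a scaffold of the C-4 demethylation complex, was at 996.8, 557.9 and 545.8 FPKM against 244.7 and 248.3 (log2 fold change 1.44). ERG24, the C-14 sterol reductase, was at 184.4, 127.6 and 125.0 against 56.0 and 52.8 (1.38). Both were highest in replicate 1 and more than 2-fold above WT in replicates 2 and 3. The deletion libraries of ERG28 held 253.4 to 664.8 FPKM, all above WT and reaching above replicates 2 and 3. Those of ERG24 held 53.0 to 115.6 FPKM, overlapping WT and below all 3 DAmP libraries. ERG2, the C-8 sterol isomerase, was at 2343, 1399 and 1867 FPKM against 779.2 and 729.5 (1.28). ERG6, the sterol methyltransferase, was at 1134, 974.1 and 883.1 against 456.9 and 416.7 (1.18, limma adjusted p = 0.142). The 3 DAmP libraries of ERG6 lay close together, and those of ERG2 were more spread.

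ERG29, of the C-4 oxidation step, was at 116.7, 85.2 and 65.8 FPKM against 43.4 and 34.3 (1.15), and ERG1, the squalene epoxidase, at 374.2, 334.6 and 315.1 against 190.0 and 195.1 (0.82). ERG26, of C-4 decarboxylation, was at 439.8, 286.3 and 261.0 FPKM against 190.9 and 190.3 (0.75). All of these libraries lay above WT, and without replicate 1 the log2 fold change of ERG26 was 0.52, under the fold threshold. Of the members not called, ERG27, the 3-keto reductase, had a log2 difference of 0.46, and ERG7, the lanosterol synthase, of 0.12 with overlapping libraries.

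ERG4, the last enzyme of the pathway, stood against the rest. It was at 128.3, 88.4 and 78.0 FPKM in TYS1 DAmP and 140.9 and 142.7 in WT. All 3 DAmP libraries lay below WT, replicate 1 the least. It was not called with all libraries (log2 difference -0.56), and was called lower without replicate 1 (-0.77, limma adjusted p = 0.00715) and after median-ratio scaling (-0.64).

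**Figure D3:**
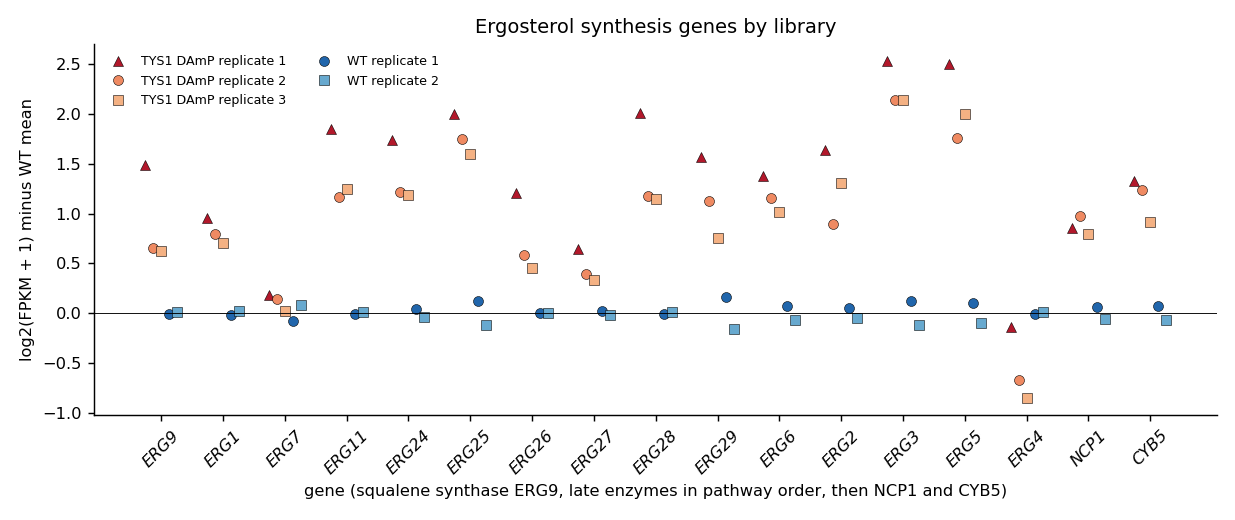
Difference from the WT mean in log2(FPKM + 1) for ERG9 and the 16 late ergosterol genes in pathway order, 1 point per library of TYS1 DAmP and WT. The DAmP libraries of ERG3, ERG5 and ERG25 lie highest, those of ERG7 overlap WT, and those of ERG4 lie below it.

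Few enzymes before squalene epoxidation were called. Of the 12 mevalonate and early sterol genes tested, 1 was called higher and 0 lower, with a median log2 fold change of 0.14. Without replicate 1 the count was the same and the median 0.25, where all genes stood at 0.0045. All 3 DAmP libraries lay above both WT libraries in 5 of the 12, where 20.4% of all genes did, and below both in 0. Limma gave 3 of the 12, all higher, an unadjusted p under 0.05. The called gene was ERG9, squalene synthase, the first enzyme committed to sterols. It was at 554.6, 310.6 and 303.1 FPKM in TYS1 DAmP and 195.4 and 197.6 in WT. Its libraries did not overlap, and the log2 fold change of 0.92 was 0.64 without replicate 1 (limma adjusted p = 0.00745). The deletion libraries of ERG9 held 200.9 to 351.9 FPKM, above both WT libraries and spanning TYS1 DAmP replicates 2 and 3. HMG1 and HMG2, the reductases at the control point of the mevalonate pathway, had log2 differences of 0.39 each. They were not called, although all their DAmP libraries lay above both WT libraries.

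Among 23 genes of sterol uptake, esterification, transport and acetylation, 4 were called higher and 0 lower, where 3.34% and 1.64% of all genes were. Their median was 0.37, and without replicate 1 the count was 5 higher with a median of 0.15. HES1, an oxysterol-binding protein of sterol transport, was at 286.8, 58.1 and 66.3 FPKM in TYS1 DAmP and 4.84 and 3.64 in WT. All DAmP libraries were more than 10-fold above WT, replicate 1 more than 4-fold above the other 2, and the log2 fold change of 4.33 was 3.60 without replicate 1 (limma adjusted p = 1.96e-06). ATF2, which acetylates sterols for export, was at 134.0, 93.5 and 101.6 FPKM against 23.7 and 18.9. This is a log2 fold change of 2.30 (SE 0.21, limma adjusted p = 0.0316), and 2.15 without replicate 1.

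The other called genes of this list were PRY1, a secreted sterol-binding protein, and ARE1, which esterifies sterols. PRY1 was at 1528, 812.8 and 638.7 FPKM against 263.9 and 257.8 (log2 fold change 1.82), and ARE1 at 119.5, 89.6 and 86.8 against 51.5 and 51.6 (0.91). Both kept the call without replicate 1. AUS1, an ABC transporter that takes up sterol without oxygen, was at 83.9, 10.6 and 9.51 FPKM against 4.02 and 4.33. It was not called with all libraries (2.07), since replicate 1 was so far above the others, but was called without it (1.09, limma adjusted p = 0.0101).

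Of the regulators, UPC2 itself was at 128.9, 73.7 and 46.1 FPKM in TYS1 DAmP and 22.4 and 18.0 in WT. The DAmP libraries were spread but all above WT, with a log2 fold change of 1.87 (1.49 without replicate 1, limma adjusted p = 0.0237). ECM22, its paralogue, showed a log2 difference of 0.16 with overlapping libraries. HAP1, the heme-responsive activator that also acts on sterol genes, was at 114.4, 92.5 and 95.6 FPKM against 64.2 and 56.1 and was called higher (0.73). BY4741 is known to carry a Ty insertion at the 3′ end of HAP1. SUT1, a regulator of sterol uptake, was not called (0.45).

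The anaerobic mannoprotein genes code for small serine-rich proteins that replace the aerobic wall proteins Cwp1 and Cwp2 when oxygen is absent. The list of 11 genes tested holds CWP1 and CWP2 as well. Without replicate 1, 6 of the 11 were called higher, where 2.51% of all genes were, with a median of 1.16. With all libraries 7 were called higher and 0 lower, where 3.34% and 1.64% of all genes were. Their median was 1.65, against 0.07 over all genes. This was the count with all 5 libraries. This count was 4 and 2 without WT replicates 1 and 2, and 1 on unlogged FPKM. TIR1 (YER011W, chrV:175248-176012) was at 4050, 2494 and 2003 FPKM in TYS1 DAmP and 95.8 and 98.2 in WT. Every DAmP library was more than 20-fold above WT. The deletion libraries held 107.4 to 874.2 FPKM, so they too lay above both WT libraries. Its log2 fold change of 4.80 (SE 0.30, limma adjusted p = 0.00565) was 4.51 without replicate 1 (adjusted p = 4.43e-08), in both cases the largest rise among all genes called.

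In TIR3, TIR4 and DAN1 replicate 1 exceeded its sister libraries by more. TIR3 was at 2726, 601.5 and 551.1 FPKM against 52.9 and 49.3 in WT, and its log2 fold change was 4.22, or 3.47 without replicate 1. The deletion libraries of TIR3 held 61.0 to 217.7 FPKM, also above both WT libraries. TIR4 was at 1259, 70.0 and 64.7 against 9.03 and 11.03, which gave 4.04 and 2.64. DAN1 was at 1320, 44.7 and 40.9 against 3.58 and 4.92, which gave 4.71 and 3.07. In each of these genes replicates 2 and 3 were close to each other and at least 5-fold above WT, and the value without replicate 1 passed with a limma adjusted p of at most 8.12e-06. PAU24 and TIR2 were called in both fits as well, at 3.67 and 1.65. FIT1, a siderophore-binding mannoprotein, was called with all libraries only.

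CWP2, the major aerobic wall mannoprotein, was at 650.2, 3396 and 2774 FPKM in TYS1 DAmP and 3696 and 3930 in WT. All DAmP values were below WT but only replicate 1 was far below, and it was not called. CWP1 was at 84.0, 215.1 and 254.4 FPKM against 104.8 and 375.9, with overlapping libraries, and was not called. The seripauperins (PAU genes), a large subtelomeric family related to the TIR genes, were also highest in replicate 1. Of 17 tested, 4 were called higher, where 3.34% of all genes were. Without replicate 1, 9 were called higher and 5 were higher at a limma adjusted p under 0.05, where 2.51% and 1.96% of all genes were. With either WT library left out 0 were called. The median difference from WT was 4.40 in replicate 1 and 0.63 and 0.74 in replicates 2 and 3. PAU8 was at 537.0, 1.04 and 2.81 FPKM against 0.00 and 0.41. PAU genes are near-identical copies, so the split of fragments between them is uncertain, and 3 more of the 20 in the table were under the minimum.

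**Figure D4:**
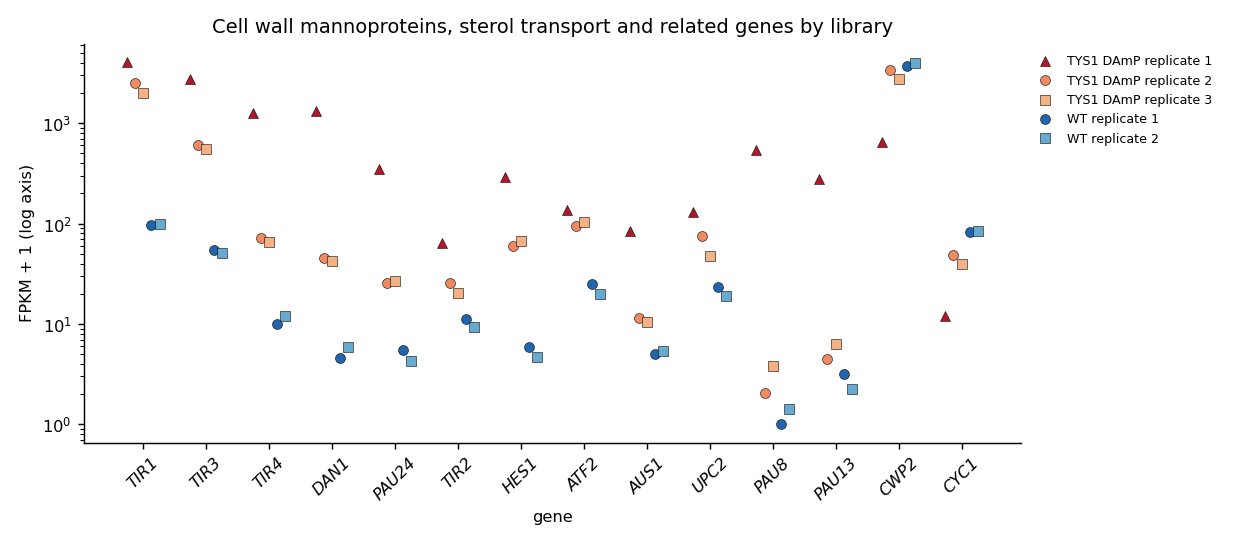
FPKM + 1 on a log axis for mannoprotein, sterol transport, regulator and seripauperin genes with CWP2 and CYC1, 1 point per library of TYS1 DAmP and WT. TIR1 and ATF2 differ at most about 2-fold between the 3 DAmP libraries, whereas DAN1, TIR4, PAU8 and PAU13 are 10-fold or more higher in replicate 1 than in replicates 2 and 3.

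Heme and oxygen-dependent genes changed less evenly. Of 21 tested, 3 were called higher and 1 lower, where 3.34% and 1.64% of all genes were, with a median of 0.10. Without replicate 1 the counts were 2 and 1, with a median of 0.05. SCM4, a mitochondrial outer membrane protein, was at 453.6, 340.6 and 319.0 FPKM against 122.3 and 128.6, a log2 fold change of 1.54 that was 1.39 without replicate 1 (limma adjusted p = 7.01e-05). HEM14 and HEM13, oxidases of heme synthesis, were called higher at 0.84 and 0.81, HEM13 only with replicate 1. CYC1, cytochrome c, was at 10.95, 47.9 and 38.8 FPKM against 80.8 and 83.1. All DAmP libraries were below WT, replicate 1 the most, and its log2 change of -1.54 was -0.91 without replicate 1 and not called after median-ratio scaling. ANB1, the hypoxic form of translation factor eIF5A, was at 742.8, 159.1 and 160.4 FPKM against 114.3 and 133.9, and was not called. In the same replicate 1, OLE1, the oxygen-requiring fatty acid desaturase, was at 198.9 FPKM, against 528.1 to 631.7 in the other 4 libraries.

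Genes tied to tyrosine and to tRNA charging gave 1 call. Of 21 cytosolic aminoacyl-tRNA synthetases, 1 was called lower, TYS1 itself, and 0 higher. All 3 DAmP libraries lay below both WT libraries in 11 of the 21, where 12.4% of all genes did, with a median log2 difference of -0.17 that was -0.06 without replicate 1. THS1, the threonyl-tRNA synthetase, was at 249.0, 380.6 and 362.7 FPKM against 449.2 and 478.5. This was a log2 difference of -0.51 that was not called, and -0.32 without replicate 1. Of 15 mitochondrial synthetases and 13 genes of aromatic amino acid synthesis, 0 passed in either direction, and limma gave an unadjusted p under 0.05 for 0 and 1 of them. In the aromatic list 9 of 13 genes had all 3 DAmP libraries above both WT libraries, where 20.4% of all genes did, with a median log2 difference of 0.23, and of 0.17 without replicate 1. The gene with that p was ARO1, for the pentafunctional enzyme of the shikimate pathway. It was at 54.5, 45.5 and 48.3 FPKM against 32.4 and 32.8, a log2 difference of 0.58 that just missed the fold threshold.

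Gcn4 is the activator that raises amino acid synthesis genes when uncharged tRNA builds up. Its transcript was at 1356, 1130 and 1078 FPKM in TYS1 DAmP and 1038 and 1094 in WT, with overlapping libraries and a log2 difference of 0.15. Control of Gcn4 acts mostly on its translation, which these data do not measure. Of 51 Gcn4-linked genes, 4 were called higher and 2 lower, where 3.34% and 1.64% of all genes were. The median was 0.21, and without replicate 1 it was 0.07 with 4 and 1 called. ARG7 of arginine synthesis was at 241.2, 163.0 and 157.1 FPKM against 95.9 and 101.6. It was called higher at 0.89, and at 0.69 without replicate 1 (limma adjusted p = 0.00838). CPA1 of arginine synthesis (0.77) and the vitamin B6 genes SNO1 (1.41) and SNZ1 (1.99) were called as well, and SER2 of serine synthesis was called lower (-0.62) with all libraries only. Of 22 amino acid permeases, DIP5, for glutamate and aspartate, was the only one called, at 141.1, 78.2 and 79.8 FPKM against 39.0 and 45.4 (1.17). Without replicate 1 it was called higher at 0.89, and the methionine permease gene MUP3, named after its values were seen, was then called lower (-1.01).

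Part of the stress and reserve carbohydrate genes was called higher. The list held 45 genes linked to the stress activators Msn2 and Msn4. All 3 DAmP libraries lay above both WT libraries in 30 of them and below both in 0, where 20.4% and 12.4% of all genes did. None had an adjusted p under 0.05 with all libraries, where 24 had an unadjusted p under 0.05 in limma. Without replicate 1, 15 were higher at a limma adjusted p under 0.05, where 1.96% of all genes were. At the study's thresholds 3.34% of all genes were called higher and 1.64% lower. Of this list 22 were called higher and 0 lower, with a median of 0.74, and 9 without replicate 1, with a median of 0.48. The count was 5 and 10 without WT replicates 1 and 2, 7 with 1 fit over all 5 groups and 1 on unlogged FPKM. RTN2, a reticulon of the endoplasmic reticulum, was at 109.6, 62.5 and 49.5 FPKM against 26.6 and 25.3, a log2 fold change of 1.39 (1.07 without replicate 1). USV1, a zinc finger protein of the stress response, was at 191.9, 100.5 and 105.9 FPKM against 39.9 and 40.3 (1.64, and 1.34 without replicate 1). HSP12, a membrane-stabilising stress protein, was at 219.0, 358.9 and 194.8 FPKM against 95.7 and 131.8 (1.14). It was highest in replicate 2, not replicate 1, and lost the call without replicate 1. Against the deletion strains, the median of this list was -0.32, and -0.57 without replicate 1, where all genes stood at -0.11 and -0.17.

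Of 20 trehalose and glycogen genes, 8 were called higher and 0 lower with all libraries, and 1 without replicate 1, 2 with either WT library left out and 0 on unlogged FPKM. That list shares genes with the stress list. Of all genes, 3.34% were called higher and 1.64% lower. GLC3, the glycogen branching enzyme, was at 133.2, 112.4 and 83.2 FPKM against 66.1 and 43.6 (0.99) and kept the call. Of 27 glycolysis and fermentation genes, 5 were called higher, among them GPD1 of glycerol synthesis (0.86), TDH1 (0.85) and GPP2 (0.65), and 2 without replicate 1. Of 33 heat shock genes, only HSP26 was called, at 184.1, 182.8 and 98.4 FPKM against 77.5 and 94.6 (0.79, not called without replicate 1), and the median difference of this list from WT was -0.67 in replicate 1 and 0.23 and 0.14 in replicates 2 and 3. Its median over the libraries was -0.13, and 0.15 without replicate 1. SSA4, a heat-inducible Hsp70, was at 41.7 FPKM in replicate 1 and 229.8 to 460.2 in the other 4 libraries. Of 33 proteasome genes 0 were called, and 0 had an unadjusted p under 0.05 in limma.

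Nearly all ribosome assembly genes had a negative log2 difference, and a minority was called lower. Of 74 genes for the small subunit, 10 were called lower and 0 higher, with a median of -0.46. Of 77 for the large subunit 16 were called lower and 0 higher, with a median of -0.47. Of all genes 1.64% were called lower and 3.34% higher. The difference was negative in 73 and 77 genes of these lists, against 2297 of all 5727. All 3 DAmP libraries lay below both WT libraries in 50 and 66 genes of these lists, where 12.4% of all genes did. Without replicate 1, 6 and 3 were called lower, where 1.82% of all genes were, with medians of -0.27 and -0.30. The 10 and 16 became 40 and 44 without TYS1 DAmP replicate 2, 4 and 5 without TYS1 DAmP replicate 3, 2 and 2 without WT replicate 1, and 4 and 2 without WT replicate 2. With all libraries 0 had an adjusted p under 0.05, and 16 and 23 had an unadjusted p under 0.05 in limma. CGR1, of large-subunit maturation, was at 183.6, 239.7 and 200.3 FPKM against 404.8 and 440.0. The groups were far apart and the log2 change of -1.03 was -0.94 without replicate 1 (limma adjusted p = 0.00216). FYV7, needed for 18S rRNA production, was at 74.8, 109.1 and 104.4 FPKM against 228.4 and 184.2 (-1.11, and -0.94 without replicate 1), and TSR2, a chaperone of a small-subunit protein, at 80.8, 86.7 and 70.5 against 135.3 and 135.3 (-0.77).

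Against the deletion mean, the medians of these lists were -0.08 and -0.06, and all genes stood at -0.11. Without replicate 1 they were 0.11 and 0.10, and all genes stood at -0.17. CGR1 was between 108.3 and 259.3 FPKM in the deletion libraries, so that both WT libraries lay above all 12 mutant libraries. Of the ribosomal protein genes, 4 of 80 for the large and 4 of 57 for the small subunit were called lower, where 1.64% of all genes were. Their medians were -0.22 and -0.22, and 0 and 2 were called lower without replicate 1. All 3 DAmP libraries lay below both WT libraries in 36 and 28 of them and above both in 0 and 0. Of all genes 12.4% lay below and 20.4% above in this way. RPS31, a fusion of ubiquitin with a ribosomal protein, was at 13874, 12538 and 16332 FPKM against 21830 and 21942 (-0.63). Of 43 translation factors 0 were called, with 2 at an unadjusted p under 0.05 in limma, and of 32 subunits of RNA polymerases I and III 3 were called lower, and 1 without replicate 1.

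Gene length moved with the lower calls. The median gene length, introns included, was 1245 bases over all genes tested, 1305 over the genes called higher and 873 over those called lower. Without replicate 1 it was 553.5 bases over the 68 genes lower at an adjusted p under 0.05. Of genes up to 300 bases long 5.95% were among these, and of genes over 2500 bases 0.245%. The part of length or of RNA quality in these calls was not tested.

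Of 17 phosphate genes 3 were called lower, where 1.64% of all genes were, and 4 without replicate 1. PHO5, the secreted acid phosphatase, was at 59.9, 72.2 and 52.0 FPKM against 154.0 and 183.9. Its libraries did not overlap, and its log2 change of -1.45 was -1.44 without replicate 1 (limma adjusted p = 0.00389). PHM6, of phosphate metabolism, was at 10.9, 5.46 and 3.88 FPKM against 19.4 and 17.3 (-1.42, and -1.78 without replicate 1), and VTC3, of polyphosphate synthesis, changed by -0.55. Of 10 core histone genes, HTA2 was called lower, at 1235, 1488 and 1439 FPKM against 2555 and 2118 (-0.75). Without replicate 1 the count was 3.

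Of 28 iron regulon genes 6 were called higher, where 3.34% of all genes were, and 1 was called higher and 1 lower without replicate 1. FIT3, a cell wall protein that retains siderophores, was at 21594, 11509 and 11178 FPKM against 6070 and 3368 (1.64). The WT libraries were themselves far apart, and the adjusted p was 0.368. Of 23 fatty acid and phospholipid genes CHO1, phosphatidylserine synthase, was called lower, at 106.0, 146.6 and 110.9 FPKM against 204.0 and 184.4 (-0.69). Purine synthesis (20 genes), sulfur and methionine (24), the unfolded protein response (20), G2/M genes (19), daughter-cell separation (12) and pheromone genes (16) gave 0 calls in either direction with all libraries, and 4, 1, 0, 0, 2 and 1 genes at an unadjusted p under 0.05 in limma. Of 7 genes of aromatic amino acid breakdown 0 were called and 1 had such a p. Without replicate 1 the purine list gave 1 gene higher, and the rest of the lists just named gave 0. In the purine list limma then gave 1 higher and 3 lower at an adjusted p under 0.05, where 1.96% and 1.19% of all genes were. With all libraries 9 of its 20 genes lay below both WT libraries in all 3 DAmP libraries, where 12.4% of all genes did, and 1 lay above both. Its median was -0.23. Hexose transporters (15), nitrogen catabolite genes (23), autophagy (32), cell wall integrity (26) and the zinc regulon (14) gave 1, 3, 2, 2 and 1 genes higher, and 1, 1, 0, 1 and 1 without replicate 1. Respiration (46) and G1/S genes (42) gave 1 lower each, and 1 and 0 without replicate 1. For comparison, 3.34% of all genes were called higher and 1.64% lower, and 2.51% and 1.82% without replicate 1.

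**Figure D5:**
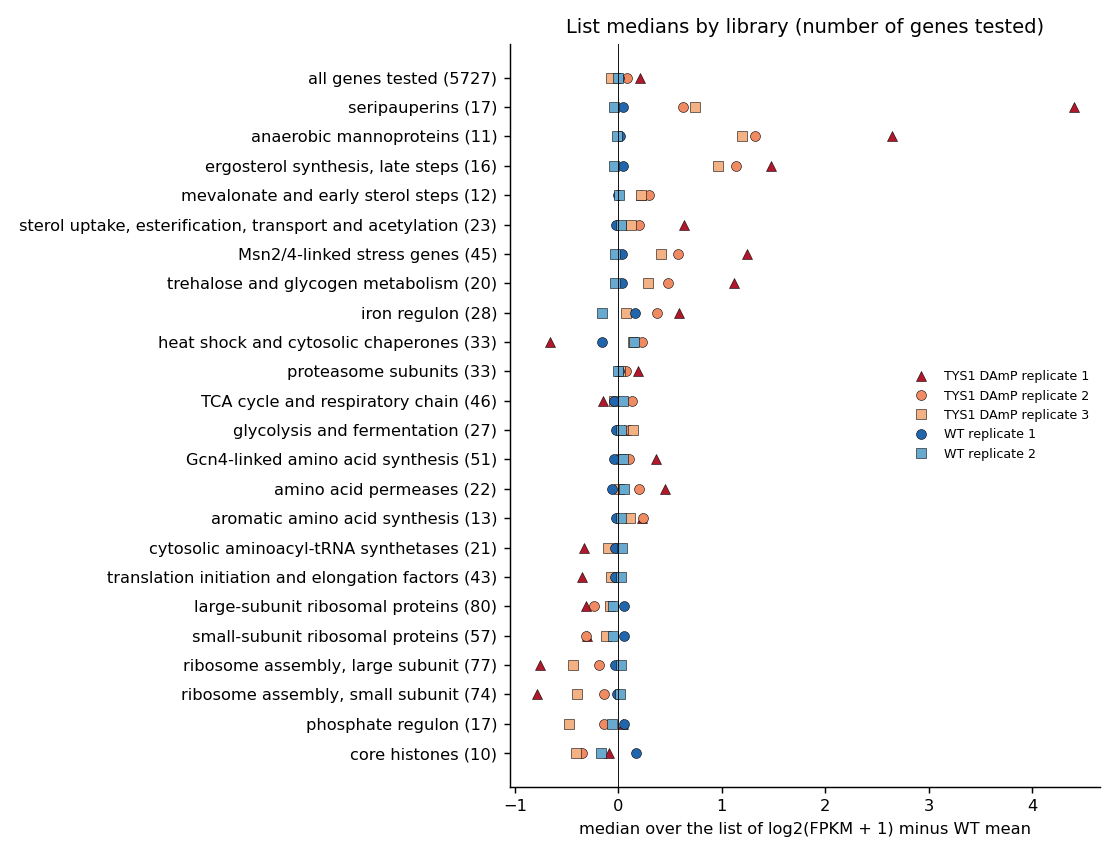
Median over each gene list of the difference from the WT mean in log2(FPKM + 1), 1 point per library of TYS1 DAmP and WT, with the number of genes tested in brackets. The late ergosterol median is at 0.96 or more in all 3 DAmP libraries, and that of the seripauperins is 4.40 in replicate 1 and under 1 in the other 2.

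The study modelled which transcripts relate to lifespan, and TYS1 is one of its negative contributors. Of 13 such negative genes tested, ERG25 and HSP26 were called higher and TYS1 and COS12, a subtelomeric gene of a repeated family, lower. MSB3 and NIT3 were not called, with log2 differences of 0.47 and -0.09. TOP2 and SUL1 were not called either (-0.17 and 0.42). Of 24 positive contributors, HTA2 was called lower and 0 were called higher. SIR2, the histone deacetylase, was at 13.6, 17.0 and 15.01 FPKM against 22.5 and 18.6, all 3 DAmP libraries below WT, with a log2 difference of -0.41 that was not called.

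Outside these lists, the largest rises that held in both fits included TSA2, a cytosolic peroxiredoxin, at 1512, 250.1 and 236.8 FPKM against 86.3 and 75.6 (2.46, and 1.58 without replicate 1). SET4, a SET-domain protein linked to stress responses, was at 66.4, 16.3 and 17.7 FPKM against 4.46 and 4.74 (2.32 and 1.68). PBI1 was at 481.5, 28.3 and 31.7 FPKM against 6.83 and 6.69 (3.32 and 2.00). In all of them replicate 1 was the highest by 3-fold or more and replicates 2 and 3 were above WT. YPR145C-A, an uncharacterised gene, was at 2594, 450.5 and 315.1 FPKM against 115.6 and 55.2 (3.15). YLL066C, a helicase gene of the repeated Y′ subtelomeric element and so uncertain, was at 10.3, 18.1 and 13.6 FPKM against 0.95 and 2.01, while the deletion libraries held 8.71 to 37.3.

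The largest falls after TYS1 were YNL284C-A (1.59, 3.27 and 6.05 FPKM against 14.4 and 15.3), CYC1, PHO5, PHM6, FYV7, YPL257W-A, EFG1 of 18S rRNA processing (-1.04), CGR1 and YML045W-A. YNL284C-A, YPL257W-A and YML045W-A are open reading frames of Ty retrotransposons, whose fragments can fall on many copies. Of 70 Ty open reading frames tested, a list drawn up after their values were seen, 16 were called higher and 8 lower, and 18 and 10 without replicate 1. Of 193 genes in other repeated families 5 were called higher and 12 lower, and 10 and 4 without replicate 1. The shares of all genes were 3.34% and 1.64%, and 2.51% and 1.82% without replicate 1.

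TYS1 DAmP was next set against the mean of MSB3Δ, NIT3Δ and HSP26Δ, a comparison that leaves out WT. Limma called 10 genes (0.175%) at an adjusted p under 0.05, and 151 (2.64%) had an unadjusted p under 0.05. MSB3 (1.58) and NIT3 (2.65) were among the 10 because they are deleted in one of the strains compared. The other 8 were TYS1 (-2.75), HES1 (3.49), TIR3 (3.28), TIR1 (3.21), ERG3 (2.19), ATF2 (2.11), ERG25 (1.57) and CYB5 (1.49). All of them apart from TYS1 belong to the sterol and mannoprotein lists. Without TYS1 DAmP replicate 1 there were 5 (0.0873%): MSB3, NIT3, TYS1, CYB5 and TIR3. The median of the late ergosterol list against the deletion strains was 0.91, and 0.70 without replicate 1, that of the mannoproteins 1.37 and 0.88, and that of all genes -0.11 and -0.17. Of the 191 genes called higher against WT, 7 had an adjusted p under 0.05 here.

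The sterol response element letters were found in the 600 bases before the start codon of 8.43% of 5721 genes with a window. They were found in 35 of the 191 genes called higher (18.3%), in 4 of the 94 called lower (4.26%), in 7 of the 16 late ergosterol genes (43.8%) and in 8 of the 11 genes of the mannoprotein list (72.7%). Of the 23 genes of sterol uptake, esterification, transport and acetylation 1 held them (4.35%). All 7 late genes with a match were among the 13 called higher. In the mannoprotein list TIR1, TIR3, DAN1, PAU24 and FIT1 held a match and were called higher. PAU23, DAN4 and CWP2, the last with a log2 difference of -1.06, held a match and were not called. TIR2 and TIR4 were called higher with no match. ERG11, ERG5, ERG24, ATF2, HES1, PRY1, ARE1 and UPC2 were called higher with no match in this window, and ERG13 and ERG8, with matches, were not called.

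The stress element AGGGG was present before 39.8% of all genes, 56.0% of those called higher and 30.9% of those called lower. The letters GATGAG, the PAC motif found before many ribosome assembly genes, were present before 32.1% of all genes and 53 of the 94 called lower (56.4%). The Gcn4 letters TGACTC were present before 15.3% of all genes, 12.04% of those called higher and 17.0% of those called lower. A match is a description of the letters and not of binding.

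Since Tys1 serves tyrosine codons, their share in each coding sequence was set beside the changes. The median share was 3.28% over all genes, 3.67% over those called higher and 3.17% over those called lower. Across 5721 genes, which are not independent replicates, Spearman's rho between the share and the log2 fold change was 0.10, and 0.05 without replicate 1.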

How the data were processed

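RNA was sequenced on a BGISEQ-500 from log-phase cultures (OD600 about 0.5). Values were deposited by the authors as FPKM, a single number for each gene in each library. The submitters' processing notes name HISAT2 2.1.0, Bowtie2, RSEM 1.3.1, DESeq2 1.4.5 and build R64, with no role or order. Of 5886 names 5877 matched the R64 reference. FPKM hold no fragment counts, so depth is known only in relative terms, and no interval from counts was possible. The labels call the libraries biological replicates and say no more of their origin, so p-values measure the spread between these libraries.

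TYS1 DAmP and WT were compared with limma 3.58.1 (R 4.3.3) on log2(FPKM + 1), two-sided, with variance trend, robust estimation and Benjamini-Hochberg adjustment over 5727 genes. The procedure was tested on simulated data with equal noise in all libraries. No library there stood apart as TYS1 DAmP replicate 1 does, so that case was not tested. The members, the 44 gene lists and the tests were chosen with earlier results of these data known. Named genes were TYS1 and its neighbours, genes with an adjusted p under 0.05, the 10 largest rises and falls called with and without TYS1 DAmP replicate 1, up to 4 genes of smallest p and the regulators of each list, the lifespan model genes, and the 5 genes in which replicate 1 stood farthest off. Genes outside this rule were chosen after their values were seen. They were other members of the sterol, mannoprotein, heme, heat shock, amino acid and seripauperin lists, genes at the end of chromosome VIII, PHO11 and YAR068W. Alternatives were a pseudocount of 0.1, other minimums, median-ratio scaling, 1 fit over 5 groups, array weights, no trend, unlogged FPKM, a replicate block, stricter folds and each library left out. Figures and tables were made in Python 3.11.15 (pandas 2.3.3, NumPy 2.4.6, matplotlib 3.10.9).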

Additional observations from a re-analysis of the deposited data

Results flagged for a closer look

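In 10 genes the level in TYS1 DAmP differed from the mean of MSB3Δ, NIT3Δ and HSP26Δ at an adjusted p under 0.05 in limma. On the log2(FPKM + 1) scale these differences were 2.65 for NIT3, -2.75 for TYS1, 1.49 for CYB5, 1.58 for MSB3, 3.28 for TIR3, 1.57 for ERG25, 2.11 for ATF2, 3.21 for TIR1, 2.19 for ERG3 and 3.49 for HES1. NIT3 and MSB3 are deleted in one of the strains in that mean. In CYB5, TIR3, ATF2, TIR1, ERG3, ERG25 and HES1 every TYS1 DAmP library lay above all 9 deletion libraries. With groups of 3 and 2 libraries, single libraries were not tested for lying far from their group.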

How the results depend on the processing

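With 2 WT libraries, the counts moved with the fit. The 5 genes with an adjusted p under 0.05 became 3 with 1 fit over all 5 groups, 432 with array weights, 0 on unlogged FPKM and 131 with median-ratio scaling without TYS1 DAmP replicate 1 (added after seeing the data), and between 0 and 180 with 1 library left out. The 180 came without TYS1 DAmP replicate 1, and each of the other 4 omissions gave 0, with 501, 521, 130 and 138 genes at an unadjusted p under 0.05 in limma (without TYS1 DAmP replicate 2 or 3, or WT replicate 1 or 2); unlogged FPKM gave 361. The 191 genes called higher became 45 on unlogged FPKM, 79 with a fold above 2, and 89 (without WT replicate 2) to 291 (without TYS1 DAmP replicate 3) with 1 library left out. The 94 called lower became 42 with 1 fit over all groups, 13 with a fold below 0.5, and 26 (without WT replicate 1) to 235 (without TYS1 DAmP replicate 2). The 10 genes apart from the deletion strains became 5 without TYS1 DAmP replicate 1 and 12 without NIT3Δ replicate 2, which was added after seeing the data. Median-ratio scaling gave 170 higher and 116 lower. IMD2 and PHO11, at -1.49 and 0.30, turned to 0.69 and -0.58 without TYS1 DAmP replicate 1 and to 0.68 and -0.59 with scaling as well, and with 1 library left out ranged from -2.64 to 0.69 and from -0.58 to 0.75.

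The late ergosterol list kept 12 or 13 of 16 genes higher in every fit but that on unlogged FPKM, which gave 8. Other lists moved more with 1 WT library left out: mannoproteins from 7 to 4 and 2 higher, seripauperins from 4 to 0 and 0, stress genes from 22 to 5 and 10, and trehalose and glycogen genes from 8 to 2 and 2. Late ergosterol genes at a limma adjusted p under 0.05 numbered 2 with all libraries and 14 without TYS1 DAmP replicate 1. They numbered 0 without TYS1 DAmP replicate 2 or 3. With the replicate number as a block, 13 genes had an adjusted p under 0.05 and 403 were called higher. The numbers were not shown to pair the samples: deviations of same-numbered libraries correlated at 0.143 and 0.0204, and TYS1 DAmP replicate 3 with WT replicate 2 at 0.223.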
